A study of Saccharomyces cerevisiae with 8 samples.

Results

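The Cy5 signals of 3 Agilent 2-colour arrays give the transcript levels of exponentially growing yeast cells at 16, 17 and 19 h. These are 3 of the 8 arrays of the series, and the other 5 hold cells of 20 to 24 h. Every gene on the array was taken, 6225 names in all, with control spots left out. The level of a gene is the mean over the 3 arrays of log2 of its median Cy5 signal minus the median local background. A gene was called undetected when no spot of it was well above background on any of the 3 arrays, and saturated when all of its spots reached the top of the scanner's range on all 3.

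The cells were of S288C, the Saccharomyces cerevisiae strain from which the reference genome was read. They were grown in batch culture in a minimal medium, that is, a medium in which cells make their own amino acids and nucleotides. The growing cells were labelled with Cy5 (red), and cells of the same strain aged 64 h were labelled with Cy3 (green) and put on every array. Dyes were taken from the label fields, since the protocol text held here breaks off after naming Cy3 for the growing cells. Hours are those of the sample labels, and the numbers in the names of the scanner files do not all equal them. The labels give no genotype beyond the strain name, no treatment, and no sign that the arrays came from separate cultures. There was 1 array at each time, so the spread over the 16, 17 and 19 h arrays holds both time and technical error.

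Yeast cells that grow on glucose ferment it to ethanol, and a large part of their messenger RNA codes for glycolytic enzymes and ribosomal proteins. Genes for respiration, for the use of other carbon sources and for storage are held down by glucose repression until the sugar runs out. Genes of meiosis and sporulation are off in growing cells, and only starved cells that carry both mating types switch them on.

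Of the 6225 genes, 5192 were well above background in all spots on all 3 arrays, and 102 of these were saturated on all 3. That is 1.64% of the genes. Another 441 genes, 7.08%, were undetected, and the remaining 592 lay between, detected on some arrays or in some spots. The median level of all genes was 10.13 on the log2 scale, with the lowest 10% below 5.37 and the highest 10% above 13.37. The levels of the 3 arrays correlated at 0.980 to 0.989 across genes, which are not independent replicates. The median SD over the 3 arrays was 0.32 for detected, unsaturated genes. It was 0.17 after each array was scaled to its 75th percentile. A probe's brightness depends on its own sequence as well as on its transcript, so the order of genes given here is an order of probe signals. Saturated probes have only a lower bound and no order among themselves.

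**Figure D1:**
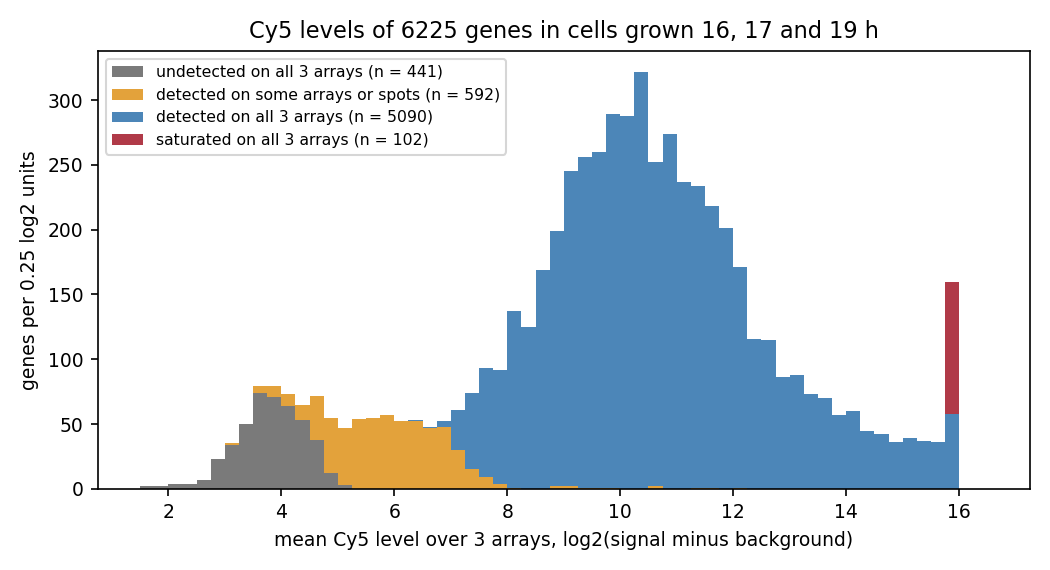
Histogram of the mean Cy5 level of the 6225 genes, in log2 of signal minus background, in steps of 0.25, stacked by detection class. The 441 undetected genes lie at 5.07 or lower, and the 102 saturated genes stand in the last step, at the top of the scanner's range.

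The array of 16 h was dimmer and noisier in Cy5 than the others. It had 84.1% of its gene spots well above background, against 91.5% at 17 h and 90.5% at 19 h, and its lowest spot still called well above background had a net signal of 100, against 10 at 17 h and 21 at 19 h. On this array 935 genes were undetected, against 482 at 17 h and 547 at 19 h. Of 365 genes undetected on exactly 1 array, 362 were undetected at 16 h. The 16 h and 19 h arrays lay on 1 slide and the 17 h array on another. On the 5 later arrays 478 to 649 genes were undetected.

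The signal was concentrated in few genes. The brightest 10% of the genes, 622 names, held 71.5% of the summed Cy5 net signal at 16 h, 69.6% at 17 h and 68.2% at 19 h. The 102 saturated genes held 24.4%, 21.9% and 18.7%. These shares are approximate, since signals were cut at the top both for these genes and for others that enter the total. The 102 genes were cut at nearly the same value on each array. The median net signal of all gene spots rose from 928 at 16 h to 1336 at 19 h. The falling share of the 102 thus follows the total and shows no change of these genes. The 441 undetected genes together held 0.0440%, 0.0138% and 0.0202%.

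The label of growing cells was set against marker genes. All 16 markers of growth on glucose were detected on all 3 arrays, and 7 of them were saturated, among them the glycolytic genes TDH3, ENO2, CDC19, PDC1 and ADH1. HXT3, a low-affinity glucose transporter, stood at 15.93 at 16 h, 16.00 at 17 h and 15.92 at 19 h. MIG2, a repressor induced by glucose, stood at 11.78, 11.70 and 12.01. Lowest of these markers was CLN2, a cyclin gene of the G1 phase, at 8.24, 7.66 and 8.40. No value of a detected marker fell to the background on any array. Brightness of the glycolytic markers alone cannot set these cells apart from 64 h cells. In Cy3, their mean levels ran from 15.02 for ENO2 to 15.83 for PDC1, with TDH3 at 15.65. In Cy5 these markers were cut at the top, so the levels show neither a difference nor its absence. By limma on the log2 ratio, 8 of the 16 markers were higher than in 64 h cells and 5 lower. Ratios of markers saturated in a channel rest on cut values. Over all genes tested the shares were 35.8% and 39.6%. Of 7 markers saturated in neither channel, 5 were higher and 1 lower, with a median log2 ratio of 3.25.

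Of 17 markers of post-diauxic and stationary cells, 15 were detected on all 3 arrays and none was in the brightest 10%. Their summed net signal was 13.08, 13.40 and 13.77 on the log2 scale at 16, 17 and 19 h, against 19.28, 19.29 and 19.34 for the growth markers. The growth sum holds 7 saturated genes and is a lower bound. Neither sum was scaled between arrays, and the median level of all genes rose from 9.87 at 16 h to 10.39 at 19 h. Thus no trend over time can be read from the sums. ICL1, the isocitrate lyase of the glyoxylate cycle, had the highest level of the post-diauxic markers, at 11.51, 11.44 and 12.12. HSP12, a small membrane-protecting stress protein, stood at 9.38 at 16 h, and at 11.09 and 11.04 on the other arrays. SIP18, a desiccation protein, had a spot above background on 1 of 3 arrays, and its level was 4.97, 4.51 and 4.69. The low end of this list reached the range of undetected genes, while most of its members stood clear of it. By limma on the log2 ratio, all 17 were lower than in 64 h cells. Of these, 11 were saturated in neither channel, and all 11 were lower, with a median log2 ratio of -3.86. Over all genes saturated in neither channel, 39.2% were lower.

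**Figure D2:**
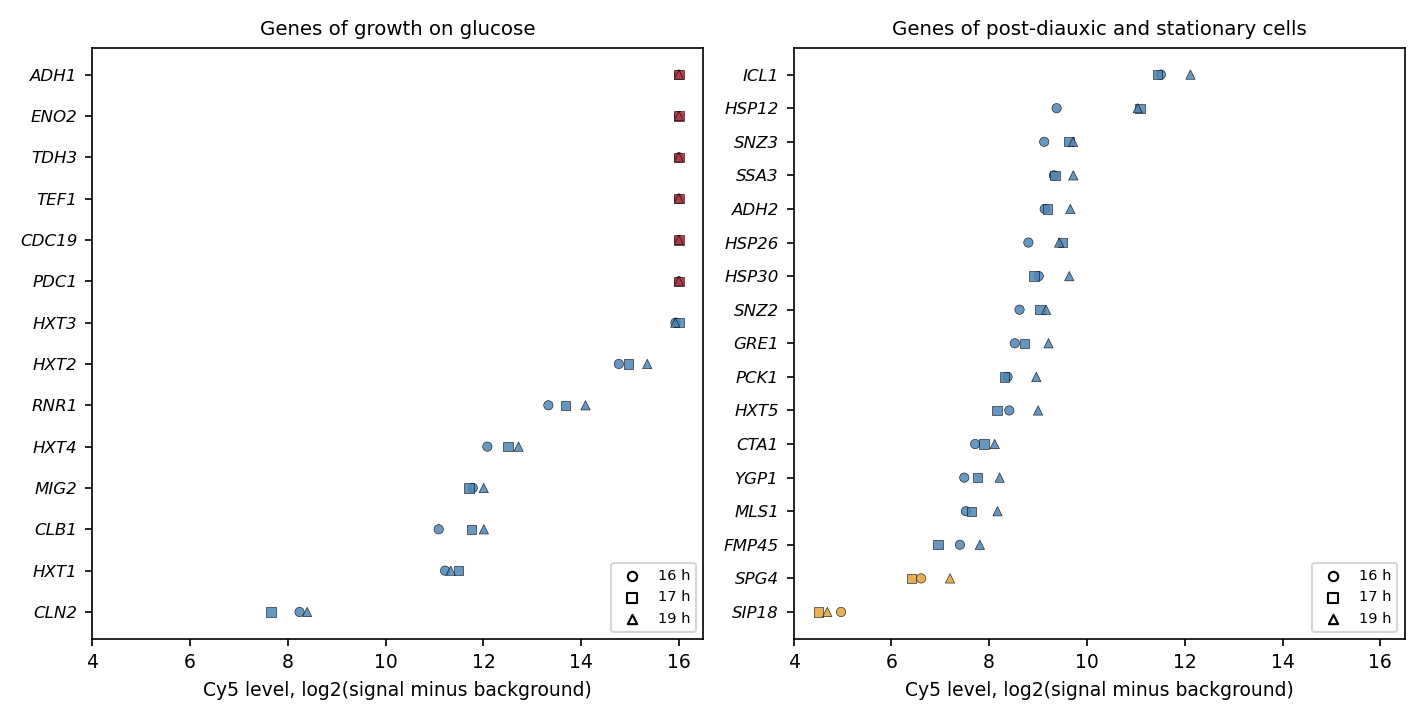
Cy5 level of the marker genes other than ribosomal protein genes, in log2 of signal minus background, at 16 h (circle), 17 h (square) and 19 h (triangle), coloured as in the histogram by detection class. The growth markers run from CLN2 near 8 to the saturated glycolytic genes, and the post-diauxic markers from SIP18, below 5, to ICL1, at 12.12 or lower.

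The biosynthetic genes that laboratory strains often lack gave signal, which alone does not show that a gene is intact. URA3, LEU2, HIS3, TRP1, LYS2, MET17 and ADE2, which serve uracil, amino acid and adenine synthesis, were detected on all 3 arrays. Among them TRP1 had the lowest level, 11.63, 11.59 and 12.09, and MET17 was saturated.

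S288C is known as a haploid of mating type alpha, but the labels give neither mating type nor ploidy. Both pheromone genes of alpha cells were at or near the background. MF(ALPHA)2 was undetected, and MF(ALPHA)1 had a spot above background on 1 array, with levels of 5.25, 4.85 and 5.02. STE3, the receptor gene of alpha cells, stood at 6.44, 5.90 and 6.88, and STE2, the receptor gene of a cells, at 6.15, 6.63 and 6.90. Both receptors were detected on 2 of the 3 arrays. Of 7 a-specific genes STE6, the exporter of a-factor, was detected in full on all 3 arrays, at 8.36, 8.65 and 8.99. Of 8 alpha-specific genes 5 were: SAG1, the regulators MATALPHA1 and MATALPHA2, and their silent copies HMLALPHA1 and HMLALPHA2. The copies have the same sequence as the regulators and the array cannot tell them apart, so the list counts each sequence more than once. Of 12 haploid-specific genes, HO, the mating type endonuclease, was undetected, and 6 were detected on all 3 arrays. The summed net signal was 9.38 to 9.89 on the log2 scale for the a-specific genes and 12.08 to 12.92 for the alpha-specific genes. The alpha-specific sum includes the regulator sequences more than once. The part of mating type or ploidy in these levels was not tested.

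Glycolysis and fermentation supplied 11 of the 102 saturated genes, from a list of 24. HXK2 (hexokinase), PGI1, FBA1, TPI1, TDH3, PGK1, GPM1, ENO2, CDC19 (pyruvate kinase), PDC1 (pyruvate decarboxylase) and ADH1 (the fermentative alcohol dehydrogenase) reached the top of the range on every array. These 11 cover the steps from hexose phosphorylation to ethanol apart from phosphofructokinase. PFK1, the alpha subunit of phosphofructokinase, stood at 15.73 at 16 h and at the top of the range, 16.00, on the other arrays. PFK2, its beta subunit, stood at 14.74, 15.27 and 15.52. The median level of the list was 15.88, and 19 of its 24 genes were in the brightest 10%, which holds 9.99% of all genes.

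The isoenzymes outside the saturated group spread over a wide range. ENO1, the second enolase, stood at 14.55, 15.81 and 15.78. TDH1, the glyceraldehyde-3-phosphate dehydrogenase known from slow-growing cells, stood at 13.42, 13.63 and 14.56. Both were lowest at 16 h. PDC5, a pyruvate decarboxylase known to be induced when PDC1 is missing, stood at 10.31, 10.23 and 10.69. PYK2, the pyruvate kinase repressed by glucose, stood at 9.28, 10.37 and 10.25. PDC6, the third pyruvate decarboxylase, was detected in part of its spots on 2 arrays, at 5.29, 3.90 and 5.01, and was the single gene of the list that did not clear the background in full. The closely similar coding sequences of TDH2 and TDH3, and of ENO1 and ENO2, can share signal.

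Ribosomal proteins were the largest group at the top. Of 137 ribosomal protein genes, 49 were saturated and 124 lay in the brightest 10%. The 80 genes of the large subunit had a median level of 15.72 and the 57 of the small subunit 15.88. Saturated genes included RPL5, RPL10, RPL28 and RPP0 of the large subunit and RPS2, RPS3 and ASC1 of the small subunit. None was undetected. The lowest level was that of RPL7B, 8.07, 7.83 and 8.20, with RPL18B at 10.65 and RPS30B at 11.31 as means over the arrays. Most yeast ribosomal proteins are encoded by a pair of nearly identical genes, so a probe may read both copies and the levels of paralogues are uncertain.

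Translation factors followed the ribosome. Of 25 genes, 8 were saturated: TEF1 and TEF2, both coding for elongation factor 1 alpha, TEF4 of its exchange complex, EFT1 and EFT2, both coding for elongation factor 2, HYP2 (the hypusine-bearing factor eIF5A), and TIF1 and TIF2, both coding for the helicase eIF4A. TEF1 and TEF2, EFT1 and EFT2, and TIF1 and TIF2 are near-identical pairs. No other initiation factor of the list was saturated on all 3 arrays. RPG1, a subunit of eIF3, stood at 10.74, 9.47 and 10.88, the lowest level of the list, and SUI1 (eIF1) at 11.86, 11.62 and 12.30. The 39 ribosome biogenesis genes, which build but do not form part of the ribosome, had a median of 11.79. None of them was saturated or undetected, and 4 were in the brightest 10%. NSR1, a nucleolar protein, and NHP2 and NOP1, of the small nucleolar particles, were among the bright ones, and NSR1 stood at 14.25, 14.36 and 14.35.

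Most genes of amino acid synthesis were bright. Of 65 genes none was undetected, 44 were in the brightest 10%, and the median level was 14.26. The saturated members were ILV5 (acetohydroxyacid reductoisomerase, of valine and isoleucine synthesis), LYS9 (saccharopine dehydrogenase, of lysine synthesis) and GLN1 (glutamine synthetase). LEU4, the first enzyme of leucine synthesis, stood at 15.97 at 16 h and at 16.00 on the other arrays. ARG1, HIS4 and TRP5, of the arginine, histidine and tryptophan pathways, stood at 15.35, 15.15 and 14.61 at 16 h. The lowest level in the list was that of ARO7 (chorismate mutase), 9.48, 9.14 and 9.64. Of 24 genes of sulfur assimilation and methionine synthesis, MET17 (homocysteine synthase) and CYS3 (cystathionine gamma-lyase) were saturated and 10 were in the brightest 10%. MET6, the methionine synthase, stood at 15.99 at 16 h and at 16.00 on the other arrays.

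Genes for nitrogen uptake and use also stood high. This group of 24 genes under nitrogen catabolite repression, the shutdown of poorer nitrogen sources in the presence of a good one, was put together after its values had been seen. Of the 24, 12 were in the brightest 10% and 6 were saturated: MEP2 (the high-affinity ammonium transporter), GLN1, and ASP3-1 to ASP3-4, identical copies of the secreted asparaginase gene that a probe cannot tell apart. GAP1, the general amino acid permease, stood at 15.30, 15.50 and 15.99. PUT4, a proline permease, stood at 14.42, 14.58 and 15.31. DAL5, an allantoate permease, stood at 13.54, 14.62 and 14.36, and the activator gene GAT1 at 13.98, 13.71 and 14.54. UGA4, a permease for gamma-aminobutyrate, had the lowest level of the group, 7.66, 7.77 and 7.88. None of the 24 was undetected, and the nitrogen source of the medium is not given in the labels.

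Outside these groups the saturated genes served the membrane, the wall, redox defence and energy transfer. PMA1, the plasma membrane proton pump, and ACT1, actin, were saturated, as was HHF1, 1 of the 2 histone H4 genes. CCW12, CWP2 and ECM33 are cell wall mannoproteins or glycoproteins. TSA1 and AHP1 are peroxiredoxins, SOD1 is the copper-zinc superoxide dismutase, and CPR1 is the cytosolic cyclophilin. ALD6 and ALD4 are the cytosolic and mitochondrial acetaldehyde dehydrogenases. HXT7, a high-affinity glucose transporter nearly identical to HXT6, was also saturated.

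Of the 102 saturated genes, 85 belonged to a gene list other than the nitrogen group, and 17 to none of those. Among the 17 were MEP2 and the 4 ASP3 copies, ACT1, GND1 (6-phosphogluconate dehydrogenase), PET9 (the mitochondrial ADP/ATP carrier), POR1 (the porin of the outer mitochondrial membrane), OPI3 (phospholipid methylation), PSA1 (GDP-mannose synthesis), ADO1 (adenosine kinase), ADE17 (purine synthesis) and GCV3 (glycine cleavage). OLI1, a subunit of the mitochondrial ATP synthase, was the single saturated gene of the mitochondrial genome. The other 2 were YDR133C and TC20147, names that the reference table does not hold.

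Nuclear genes of respiration were bright but mostly short of saturation. None of 40 nuclear genes of oxidative phosphorylation was saturated on all 3 arrays, and 18 were in the brightest 10%, with a list median of 13.13. ATP2, the beta subunit of the ATP synthase, stood at 15.48, 15.87 and 16.00. NDE2, an external NADH dehydrogenase, had the lowest level, 6.72, 6.41 and 7.02. Among 26 chaperones 14 were in the brightest 10%. SSB1, the ribosome-bound Hsp70, stood at 15.88, 16.00 and 16.00, while SSA4, a stress-induced Hsp70, stood at 9.26, 9.42 and 9.97.

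**Figure D3:**
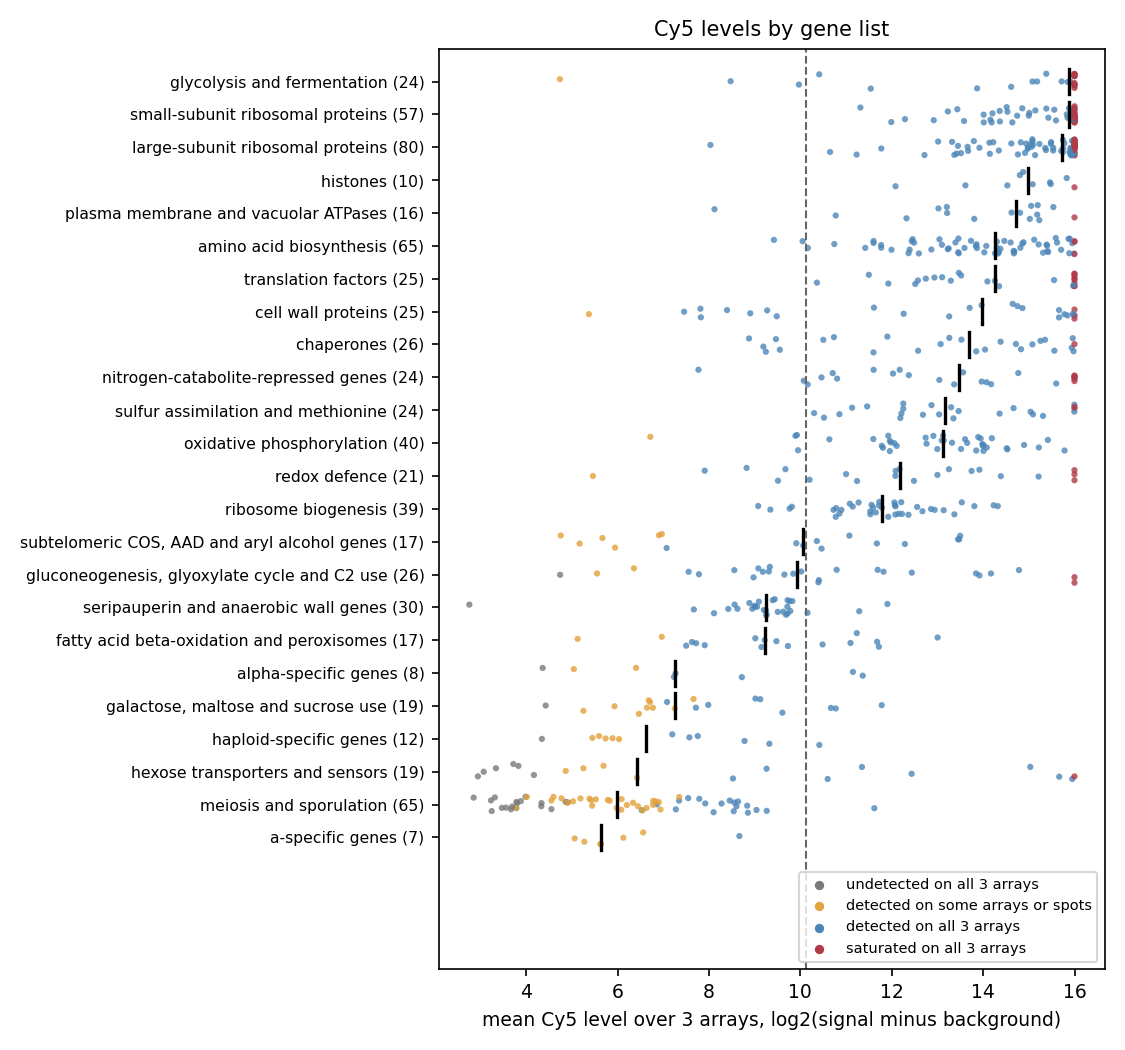
Mean Cy5 level of each member of 24 gene lists, in log2 of signal minus background, with the number of genes on the array in brackets. Black bars mark list medians and the dashed line the median of all genes, 10.13. Small-subunit ribosomal proteins and glycolysis have medians of 15.88, and meiosis and sporulation genes and a-specific genes stand lowest, at 5.98 and 5.64.

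Among genes saturated on no array, 6039 in number, the brightest were spread over many functions. ADK1, the adenylate kinase, had the highest mean level, from 15.61 at 16 h to 15.90 at 17 h and 15.71 at 19 h. YLR179C, a gene of unknown function, stood at 15.66, 15.77 and 15.78. CCW14, a cell wall protein, stood at 15.58, 15.48 and 15.91. The next were SBH2 of the Ssh1 translocon at 15.63, ASN2 (asparagine synthetase) at 15.62 and RNR2 (ribonucleotide reductase) at 15.56, each as a mean over the arrays. The differences between these neighbours lay within their spread over the arrays, with SDs of 0.07 to 0.40, so no order among them can be given.

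The remaining 14 of the 20 brightest unsaturated genes had means from 15.43 to 15.56. They held 5 ribosomal protein genes, RPS8A, RPL9B, RPL14A, RPL27A and RPS7A, and the histone genes HHT2 and HTB1. The others were ACO1 (aconitase), ACC1 (acetyl-CoA carboxylase, which starts fatty acid synthesis), SEC53 (phosphomannomutase, of protein glycosylation), PIL1 (the core eisosome protein), GUA1 (GMP synthase), GRS1 (glycyl-tRNA synthetase) and NCW1 (a cell wall protein). A further 84 genes were saturated on some of the 3 arrays, and their means mix measured values with values cut at the top.

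The 441 undetected genes had a median level of 3.82, and the highest was 5.07. At the edge of the class stood ECM12 with 5.35, 4.75 and 5.12 and YCR022C with 5.62, 4.38 and 5.18. Just outside were FYV5 and YMR135W-A, with a spot above background on 1 array and mean levels of 3.15 and 3.55. The edge is therefore not a level, since each array sets its own threshold from its background.

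Most undetected names were not annotated as genes in the reference table. Of the 6225 names, 5737 matched the table and 488 did not. Among the matched genes 199, or 3.47%, were undetected, and among the unmatched names 242, or 49.6%. Of the unmatched names, 458 have the form of a systematic open reading frame name. Among matched genes that have only a systematic name, 97 of 517 (18.8%) were undetected, against 102 of 5220 genes with a symbol (1.95%). Thus 102 of the 441 undetected names were genes with a symbol.

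Undetected genes were shorter than the rest, and the share undetected was higher near chromosome ends. The median length of matched genes, from start to stop codon with introns, was 539 bp for the undetected class and 1221 bp for all matched genes. It was 903 bp for the saturated class. By length, 11.7% of genes of 300 to 599 bp were undetected, 6.15% of shorter ones, and 0.920% of those of 2400 bp or more. Counted in genes from the nearer chromosome end, 13.3% of the first 5 places and 10.46% of places 6 to 10 were undetected, against 2.42% of places 21 to 40 and 2.83% of places 41 and further. Most undetected genes lay away from the ends, 127 of them at places 41 and further. None of the genes in the first 10 places was saturated. Families near the ends have near-identical members that share signal, and 29 of 30 genes of the seripauperin and anaerobic wall group were detected, with a list median of 9.26.

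**Figure D4:**
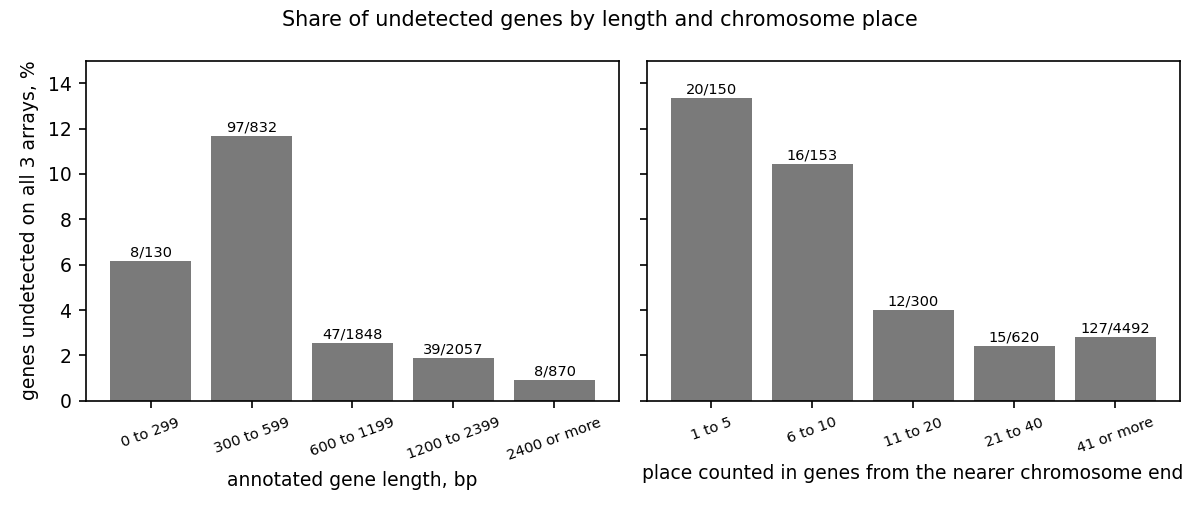
Percentage of matched genes undetected on all 3 arrays, by annotated gene length in bp (left) and by place counted in genes from the nearer chromosome end (right). Numbers over the bars give undetected over all genes; 20 of 150 genes in the first 5 places were undetected, against 127 of 4492 in places 41 and further.

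Meiosis and sporulation gave the largest group of undetected genes with known roles. Of 65 genes 18 were undetected, 28 lay between, and none was in the brightest 10%. The undetected share was 27.7%, against 7.08% of all genes and 1.95% of matched genes with a symbol. The list median was 5.98. Undetected were SPO13 and REC8, which control how chromosomes part in the first meiotic division, the recombination genes MEI4, REC114, MER1, HOP2, MND1 and MEI5, and HOP1, MEK1 and ZIP2 of the paired chromosome axis and synapsis. SPS2, SPS22, OSW1 and CDA2, of the spore wall, and SPO19, SPO74 and SPO77, of spore formation, were also undetected. REC8 stood at 4.18, 4.35 and 4.47, and HOP1 at 6.20, 3.89 and 4.64. The 16 h value of HOP1 was the highest, and that array had the highest threshold.

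Several meiotic genes were detected. CLB1, a B-type cyclin that also acts in mitosis, stood at 11.09, 11.76 and 12.01, the highest of the list. IME1, the master activator of meiosis, was well above background on all 3 arrays at 7.16, 5.73 and 6.69, and IME4 stood at 9.13, 9.24 and 9.42. NDT80, the activator of the middle meiotic genes, stood at 8.55, 8.37 and 8.88, close to each other on all arrays. IME2, the kinase downstream of IME1, was not detected in full, at 5.67, 5.67 and 6.15.

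The hexose transporters divided into bright and undetected members. HXT7 was saturated, and HXT6, the high-affinity transporter beside it, stood at 15.28, 15.72 and 16.00. HXT2, a high-affinity transporter induced at low glucose, stood at 14.77, 14.97 and 15.35. HXT4 stood at 12.08, 12.50 and 12.72 and HXT1, the low-affinity transporter of high glucose, at 11.22, 11.49 and 11.33. The glucose sensor genes SNF3 and RGT2 were detected on all arrays, at means of 10.60 and 9.26. HXT5, a transporter of slow-growing cells, had a mean of 8.53 and its lowest value, 8.16, at 17 h. HXT10, HXT11, HXT13, HXT14, HXT15 and HXT16 were undetected, and HXT8, HXT9, HXT17 and GAL2 were not detected in full. The undetected members stood between 1.79 and 4.66 on single arrays, and every value of HXT5 and of the transporters named before it was 8.16 or higher.

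The mitochondrial genome was split as well. Of its 23 genes on the array, 10 were undetected. All but Q0010 and Q0255 of these lie within introns or code for intron-encoded proteins: AI1, AI3, AI4 and AI5_BETA of COX1, BI2, BI3 and BI4 of COB, and SCEI of the large ribosomal RNA. Other genes of COX1 introns were detected on all 3 arrays, AI2 at 7.96, 9.97 and 9.02 and AI5_ALPHA at 9.24, 9.68 and 9.58. COB stood at 10.52, 11.53 and 11.62, COX1 at 9.35, 10.82 and 10.02 and COX3 at 9.01, 10.09 and 10.00, each lowest at 16 h. Labelled cDNA was primed from oligo(dT) per the labels, and mitochondrial messengers of yeast lack a poly(A) tail, so these levels are not on the footing of nuclear genes.

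Single undetected members came from other lists. GAL10, the epimerase of galactose use, stood at 5.93, 2.85 and 4.50. DAN1, a wall protein of anaerobic cells, stood at 3.63, 2.02 and 2.61. SIP4, an activator of gluconeogenic genes, stood at 4.92, 4.16 and 5.15. No member of the lists for glycolysis, ribosomal proteins, ribosome biogenesis, translation factors, histones, amino acid or sulfur metabolism, chaperones, redox defence or oxidative phosphorylation was undetected. Further undetected names that carry a sporulation or recombination role were seen outside the list, among them SPR3, SPR28, SMA1, SMA2, NDJ1, GMC2 and PCH2, and these were picked out after their values were seen.

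Signal in the Cy3 channel of the same arrays shows that a probe can give signal, while its absence there does not show that a probe cannot. Of the 441 genes undetected in growing cells, 392 (88.9%) were also undetected on all 3 arrays in the 64 h cells, and 36 were detected there in part. That leaves 13 genes well above background in Cy3 on all 3 arrays, for which a lower bound on the difference was computed from the lowest detectable Cy5 signal. For SIP4 the bound was at least 12.1-fold lower, with a normalized log2 signal of 10.63 in Cy3 against a bound of 7.03 in Cy5. The chitin deacetylase gene CDA2 was at least 2.31-fold lower and the enolase-related gene ERR3 at least 2.31-fold lower. CSM4, of meiotic telomere movement, was at least 2.18-fold lower and REC8 at least 1.82-fold. The other 8 were THI13, YOR392W, YGL193C, SPR28, UTR5, SRL4, YJR154W and ARO10, at least 1.14-fold to 1.55-fold lower. The 13 were chosen for this contrast, so their differences are given as a description.

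In the other direction, 525 genes were undetected in Cy3 on all 3 arrays, and 4 of them were detected in full in growing cells. YGR035C, of unknown function, stood at 8.71, 8.58 and 8.63 and was at least 4.79-fold higher than in 64 h cells. YPL197C, YJL188C and YPR044C had mean levels of 7.11, 7.08 and 7.03 in Cy5 and of 6.64, 6.53 and 6.64 in Cy3, without normalization between channels. Their Cy5 levels at 17 h, 6.09, 6.38 and 6.34, were lower than at 16 and 19 h, where they stood between 7.37 and 7.64. The later arrays also split for these names, as given under other observations. These 3 names are not in the reference table, and as background they overlap the ribosomal protein genes RPL7B, RPL39 and RPL43A. Which strand a probe reads was not tested.

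**Figure D5:**
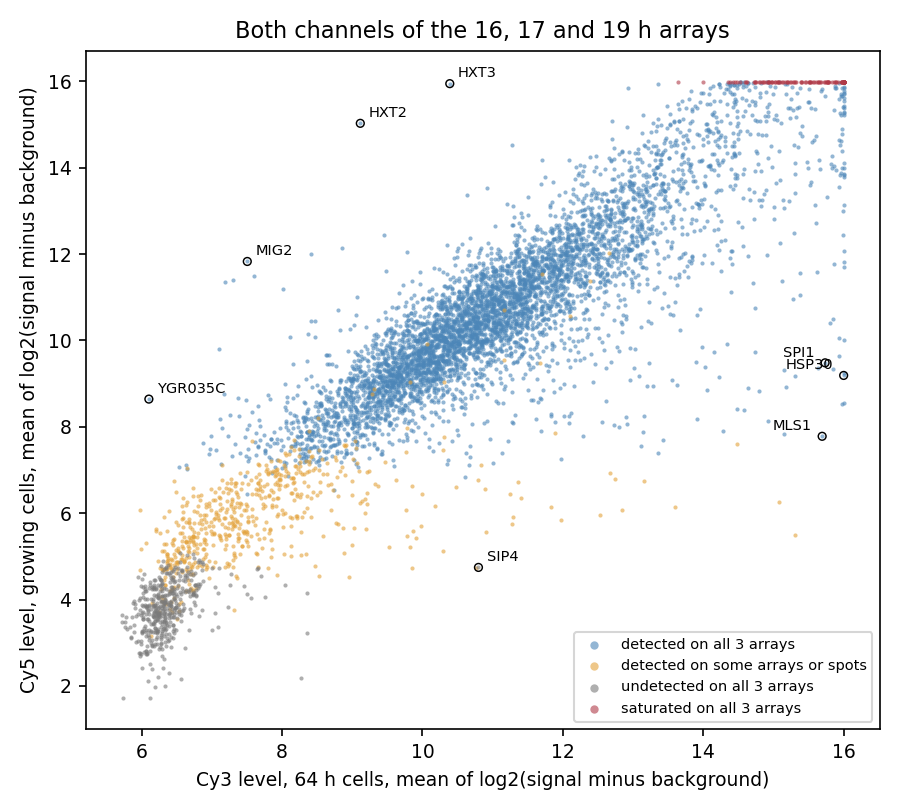
Mean Cy5 level of growing cells against mean Cy3 level of 64 h cells for each gene on the 16, 17 and 19 h arrays, both in log2 of signal minus background and not normalized between channels. Undetected genes gather at the lower left, saturated genes along the top, and SIP4, at 10.80 in Cy3 and 4.74 in Cy5, stands apart from the other undetected genes.

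On the 5 later arrays, 364 of the 441 genes were again undetected in Cy5 on every array. Of the other 77, 60 were detected on 1 later array, 13 on 2, 3 on 3 and 1 on 4. That last gene was FRE5, a relative of the ferric reductases, with early levels of 4.89, 2.52 and 4.04. None was detected on all 5 later arrays. The later group has 5 arrays against 3, so a gene had more chances to be detected there.

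The levels of growing cells were also set against those of the 64 h cells on the same arrays. Over 5643 genes tested, 2019 (35.8%) were higher in growing cells and 2232 (39.6%) lower, by limma on the log2 ratio of Cy5 over Cy3 with Benjamini-Hochberg adjusted p under 0.05. Of these, 356 and 678 differed at least 2-fold. The 64 h RNA was 1 reference sample, so its own spread is not in the test, and any dye bias is. To keep cut values out, the lists were counted over members saturated in neither channel, where the background was 35.5% higher and 39.2% lower, with a median log2 ratio of -0.026 over 5413 genes.

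Among these, 37 of 38 large-subunit and 25 of 25 small-subunit ribosomal protein genes were higher in growing cells, with median log2 ratios of 1.1 and 1.13. All 39 ribosome biogenesis genes were higher, with a median of 0.98, although only 4 of them were in the brightest 10%. Of 54 amino acid genes 39 were higher and 9 lower, with a median of 0.56. Oxidative phosphorylation went the other way, with 26 of 28 lower and a median of -1.91, although 18 of its 40 genes were in the brightest 10% of growing cells. Chaperones were lower in 14 of 19 cases, with a median of -0.79. All list counts and medians given here rest on loess, and whether they hold with median centring was not tested. Bright genes such as ADK1, CCW14 and ACC1 changed direction with median centring. The direction for chaperones, a list with many bright genes, is therefore given for loess alone. For glycolysis and fermentation only 7 of 24 genes were saturated in neither channel, and 3 of these were higher and 2 lower, so the arrays bound this list rather than measure it.

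The 20 brightest unsaturated genes held members with ratios on both sides of 0. RPS8A was higher in growing cells, with log2 ratios of 1.16, 1.70 and 1.43 at 16, 17 and 19 h and a mean of 1.43 (SE 0.10, limma adjusted p = 3.11e-06). RPL27A had a mean of 1.42 (SE 0.07, limma adjusted p = 2.96e-07), and YLR179C of 1.28 (SE 0.08, limma adjusted p = 1.08e-06). ACO1 and NCW1 were called lower, but Cy3 was saturated on all 3 arrays for both, so no size is given. CCW14 had a mean of -0.64 (SE 0.07, limma adjusted p = 5.19e-05) and ACC1 of -0.53 (SE 0.07, limma adjusted p = 0.000174). With median centring in place of loess both turned to the other side of 0, CCW14 at 0.22 and ACC1 at 0.31. PIL1 had a log2 ratio of 0.025, with an SE of 0.073 (limma adjusted p = 0.764).

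Growing cells of 20 to 24 h were compared with those of 16, 17 and 19 h on the same log2 ratios. Of 5672 genes tested, none was called higher and none lower (0% each, limma), although 807 passed 0.05 before adjustment. The smallest adjusted p in limma was 0.174. Without the array recorded at 24 h, 19 genes were called higher and 4 lower in later cells. The scanner files recorded for 20 and 24 h each match the other's column in the authors' deposited table, and both are in the later group. With the later group held to 21, 22 and 23 h, 48 genes were called higher and 17 lower. Median differences of later minus early were -0.36 for ribosome biogenesis, 0.36 for oxidative phosphorylation and 0.014 for all genes, with 0 of 39 and 0 of 40 genes called.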

How the data were processed

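The deposited scanner files hold a median signal and a median local background per spot and channel, as intensity, with flags for spots well above background, saturated or outlying; per the file headers, the software was Agilent Feature Extraction, version 10.5.1.1. A deposited log10 ratio of Cy5 over Cy3 stands beside them. The authors' deposited value table holds log2 values centred per gene. Its normalization is not given in these sources. The design's build is sacCer2 per the file headers.

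Levels were computed for 12512 gene spots an array. The 2 spots of a probe were averaged as log2 values, a spot not above its background gave no level, and of several probes of a gene (29 genes) the brightest was kept. For ratios, normexp (offset 50) and loess were applied (limma 3.58.1, R 4.3.3) without outlier spots, and a gene was tested when well above background on at least 2 of the 3 arrays in Cy5 or Cy3 (3 of 8 for the later comparison). Bounds used signals after loess and Aquantile. Names come from a RefSeq table of assembly R64, and no coordinates or sequences are given. Part of the genes are named by a rule, which takes saturated and undetected list members and the 20 brightest unsaturated genes. It also takes genes detected in 1 channel alone, those nearest to the threshold, and 9 fixed genes. Many other named genes, such as PDC5, NSR1 and FRE5, fall outside this rule and were picked as examples with their levels known. Members and lists were chosen with earlier results of these data known, and the list of nitrogen genes after its values were seen. Separate cultures are not recorded, so the p-values rest on scatter between arrays that may be technical, and the number of arrays limits the precision. On simulated data the fit against 64 h cells over 5643 genes recovered 88 of 100 genes changed by 1 and 60 of 100 changed by 0.5 on the log2 scale. The later comparison over 5672 genes recovered 94 and 46 of 100. In the simulation for 64 h cells 5443 genes were unchanged, and noise was independent between genes and arrays. The real data had far more calls and may hold shared array and dye errors, so these rates need not hold for them. A gene of these lists, counted in the totals, is not reported here by name.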

Additional observations from a re-analysis of the deposited data

How the results depend on the processing

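No paired analysis was possible because the labels give no replicate numbers that pair early with later arrays. The comparison with 64 h cells sets the 2 channels of each array against each other, and the later comparison with slide as a block had 0 calls. The number of undetected genes depends on what counts as detected. It was 441 by the scanner's flag of a signal well above background, 132 by its flag of a positive and significant signal, and 248 with a threshold from the negative controls, of which 247 were among the 441. Leaving out 1 array gave 447 to 539 undetected and 102 to 117 saturated genes, and the brightest 10% kept 608 to 617 of its 622 genes. Across the other settings it kept 603 to 622. Counts against 64 h cells stayed within 1.5 times under every alternative run, at 1751 to 2219 higher and 1952 to 2289 lower. Which side was larger depended on the setting. The main run had 2019 higher and 2232 lower, and the scanner's own ratio gave 2219 higher and 1952 lower. The comparison of later with early cells had 0 calls under most settings. Leaving out 1 array gave 0 to 19 higher and 0 to 4 lower. With the later arrays of 21, 22 and 23 h only it had 48 higher and 17 lower, and with slide added as a block, a setting chosen after seeing the data, 155 higher and 63 lower. At the bright end the direction against 64 h cells depends on the normalization. With median centring in place of loess the log2 ratio was 0.69 for ADK1, 0.22 for CCW14, 0.31 for ACC1, 0.29 for MET17, 0.32 for ACT1 and 0.29 for PMA1, where loess gave values below 0. For MET17 and PMA1 both Cy5 and Cy3 were saturated on each of the 3 arrays, for ACT1 Cy5 on 3 and Cy3 on 2, so their ratios compare cut values and have no direction. In addition, the scanner's own ratio gave -0.039 for PIL1, where loess gave 0.025. The cause was not tested. The undetected class is limited most by the 17 h array, which had the lowest threshold, and without which 539 genes were undetected.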

Other observations

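Among detected genes the level differed most between the 3 arrays for YCL007C and YPL142C, names that the reference table does not hold. On the log2 scale, YCL007C stood at 9.86, 9.51, 9.30 and 9.93 on the arrays recorded at 16, 19, 22 and 24 h, and at 5.38, 5.31, 5.78 and 6.20 on those of 17, 20, 21 and 23 h. YPL142C stood at 9.91, 9.77, 9.42 and 9.90 on the first set and at 6.64, 6.70, 6.76 and 7.18 on the second. YPL197C was at 7.57 to 8.15 on the first set and at 5.51 to 6.66 on the second. YJL188C was at 7.39 to 7.67 and at 6.27 to 6.86, and YPR044C at 7.01 to 7.75 and at 6.28 to 6.52. These values were picked out for their spread, and the sets are not those of the slides, since the 23 h array lay on the slide of the first set. The cause was not tested.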
